A study of Homo sapiens with 18 samples.

Results

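LNCaP cells that had received 10 µM baicalein for 24 h were compared with untreated LNCaP, gene by gene, from counts of poly(A) RNA sequencing. Libraries were chosen by the cell line, compound and concentration in their labels, which gave 6 of the 18 libraries of the series, 3 with baicalein and 3 untreated. LNCaP is a human prostate cancer line from a lymph node metastasis, and baicalein is a flavone found in the root of skullcap. Other libraries came from LNCaP with 20 µM baicalein, from LNCaP with 10 or 20 µM genistein and from untreated PC-3, an androgen-independent prostate cancer line, with 3 libraries per group. The title of the series names genistein and baicalein as radiosensitizers used with a radioligand of PSMA, the prostate-specific membrane antigen. All cells were labelled wild type and grew in RPMI-1640 with serum. Control libraries carry the label untreated, although DMSO is described as the vehicle in the treatment protocol, and both names refer to the same 3 libraries here. Whether replicates were separate cultures is not stated, and all p-values therefore measure spread between libraries that may be technical.

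LNCaP responds to androgen, which is a growth signal for these cells. In them androgen drives genes such as KLK2, KLK3 and TMPRSS2 and holds down others, among them the UGT2B enzymes that inactivate androgens. Immediate early genes such as FOS, FOSB and EGR1 are transcribed within minutes of a growth factor or stress signal, with no need for new protein, and their products switch on later genes. Most of these responses are brief, and a level at 24 h is a single late view of them.

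Total counts were 10551965, 11460509 and 11142961 in the baicalein libraries and 18445711, 14982040 and 16191282 in the untreated libraries, so depth did not overlap between the groups. Values are given as CPM, counts scaled to a common library size with TMM factors. Means are given ± SD of 3 libraries and log2 fold changes ± standard error. All 6 libraries carried LNCaP markers. The summed share of 10 of them, without TMM scaling, was 3701 to 4091 CPM with baicalein and 4642 to 5086 CPM in untreated cells, against 355 to 383 CPM in PC-3. Markers of PC-3 (12 genes) summed to 12.8 to 15.8 CPM with baicalein and 10.1 to 11.7 CPM in untreated LNCaP, against 4099 to 4457 CPM in PC-3 itself. Fibroblast markers (10 genes, of which COL1A2, DCN, FAP and POSTN had no count) summed to 11.5 to 13.8 CPM with baicalein and 15.6 to 17.1 CPM in untreated cells. Immune markers (10 genes, 1 of them without a count) summed to 2.78 to 3.49 CPM with baicalein and 2.49 to 3.21 CPM in untreated cells. Endothelial markers (8 genes, CDH5, CLDN5 and KDR without a count) summed to 6.82 to 7.68 CPM with baicalein and 7.54 to 9.21 CPM in untreated cells. The sums of LNCaP, PC-3 and fibroblast markers did not overlap between the groups, and the part of these markers in the results was not tested. For depth, the calls after thinning every LNCaP library to the lowest total are given below. In such bulk samples fewer cells of a type and less RNA per cell cannot be told apart.

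With 10 µM baicalein the early genes FOS, FOSB and EGR1 rose between 9.32 and 19.3-fold, and 8 of 28 androgen-induced genes fell, each by less than 2-fold. The androgen-inactivating enzymes UGT2B15 and UGT2B17 rose, and the hormone-induced cofactor GREB1 fell. Of 16985 genes tested with edgeR's quasi-likelihood test, 68 were called at an adjusted p under 0.05, which is 0.4% of those tested. Among them 15 were higher with baicalein (0.0883%) and 53 lower (0.312%). At an unadjusted p under 0.05 the test gave 911 higher (5.36%) and 996 lower (5.86%). The median log2 fold change over all genes was 0.02. Most calls were of modest size, with a median of 1.66-fold among those higher and 1.73-fold among those lower, and 6 of the higher and 16 of the lower genes passed 2-fold. The groups did not overlap for any of the 68, as was the case for 18% of all genes tested. Removing the trend with GC content and transcript length gave 65 higher and 95 lower, or 40.6% of calls higher, against 22.1% without it, and leaving out mitochondrially encoded genes gave 12 higher and 89 lower. DESeq2, another test on counts, gave 89 higher and 311 lower among the 16129 genes for which it gave an adjusted p. Protein-coding genes made up 61 of the 68. The genes called lower had a median transcript length of 4339 bases and a median GC content of 52.4%, those called higher 2158 bases and 48.4%, and all genes tested 3138 bases and 48.0%.

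**Figure D1:**
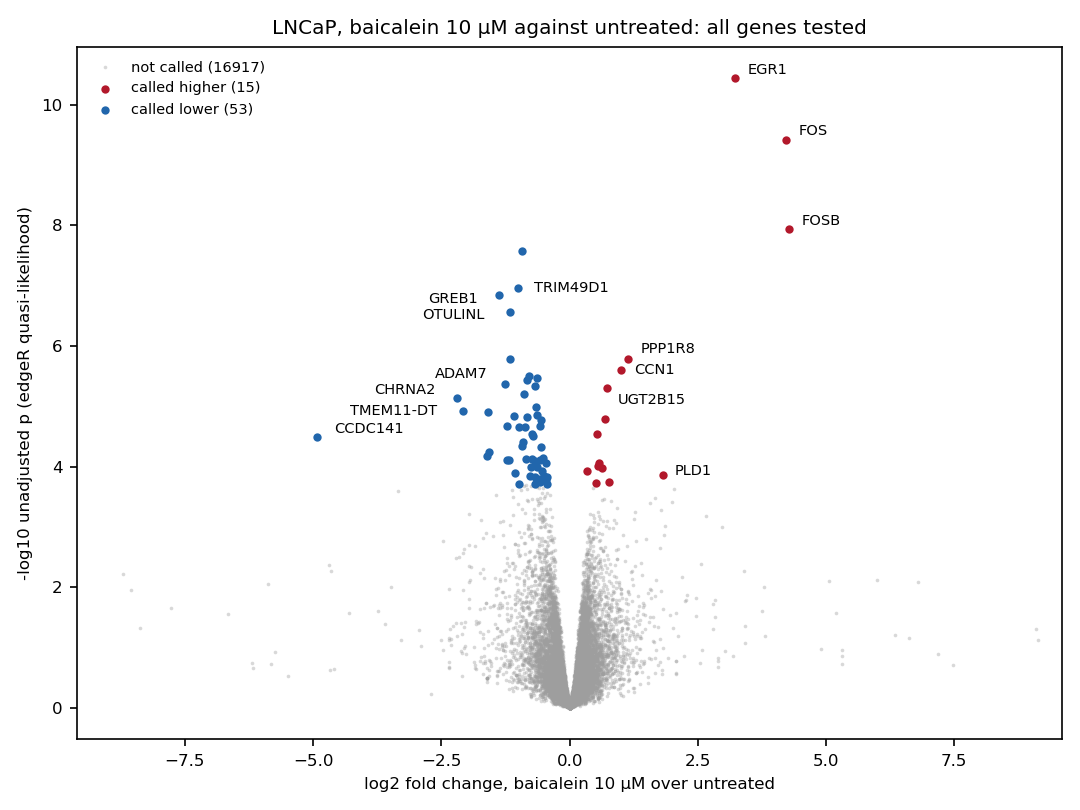
Log2 fold change of baicalein 10 µM over untreated LNCaP (horizontal axis) against the unadjusted p of edgeR's quasi-likelihood test on a -log10 scale (vertical axis), 1 point per gene tested. Red points mark the 15 genes called higher and blue points the 53 called lower; EGR1, FOS and FOSB stand apart at the upper right, and the fitted fold of CCDC141 rests on 1 count in the baicalein libraries.

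Among the genes called higher, the immediate early genes FOSB, FOS and EGR1 had the largest fold changes. FOS (ENSG00000170345, chromosome 14, 75278826 to 75282230, plus strand), which encodes a subunit of the transcription factor AP-1, had 89.3, 120.1 and 116 CPM with baicalein, against 7.32, 5.38 and 4.77 CPM in untreated cells. Each baicalein library lay more than 10-fold above each untreated one, with no overlap. The rise was 18.6-fold (log2 fold change 4.21 ± 0.25, adjusted p = 3.2e-06). FOSB (ENSG00000125740, chromosome 19, 45467995 to 45475179, plus strand), another AP-1 subunit, stood at 4.34, 4.94 and 7.71 CPM with baicalein, against 0.208, 0.367 and 0.287 CPM in untreated cells, where it was close to the limit of detection with 4, 6 and 5 counts. The baicalein libraries were all far above, and FOSB rose 19.3-fold (log2 fold change 4.27 ± 0.34, adjusted p = 6.49e-05). EGR1 (ENSG00000120738, chromosome 5, 138465479 to 138469303, plus strand), a zinc finger transcription factor, had 15.6, 14.4 and 13.2 CPM with baicalein, against 1.35, 1.96 and 1.32 CPM in untreated cells. Replicates were close in both groups, and EGR1 rose 9.32-fold (log2 fold change 3.22 ± 0.16, adjusted p = 6.18e-07). CCN1 (ENSG00000142871, chromosome 1, 85580761 to 85584589, plus strand), a secreted matrix protein, reached 22, 19.5 and 19.9 CPM with baicalein, against 10.4, 10.6 and 9.59 CPM in untreated cells, and rose 2.01-fold (log2 fold change 1.00 ± 0.13, adjusted p = 0.00425). All 4 calls held when any 1 of the 6 libraries was left out, with adjusted p of at most 0.000108 for FOS, 0.00163 for FOSB, 2.62e-05 for EGR1 and 0.038 for CCN1.

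Of 28 immediate early genes listed, 22 passed the filter on low counts, 4 were called higher and 0 lower, and the median log2 fold change of the 22 was 0.37, against 0.02 over all genes. At an unadjusted p under 0.05, 8 of them were higher and none lower, against 5.36% and 5.86% of all genes tested. DESeq2 called 5 higher, against 89 of all 16129 genes with an adjusted p from it. JUND, a partner of FOS in AP-1, had 92.1, 75.4 and 76 CPM with baicalein, against 52.9, 52.4 and 51.7 CPM in untreated cells, and was not called by edgeR although the groups did not overlap (adjusted p = 0.0651; 0.00212 by DESeq2). JUN, the best known partner, had 88.9, 68.6 and 76.5 CPM with baicalein, against 40.3, 5.26 and 42.1 CPM in untreated cells, where the second library was low, and was not called (log2 fold change 1.42, adjusted p = 0.46). ATF3, a stress-induced factor of the same dimer family, had 49.5, 37.4 and 34.1 CPM with baicalein, against 6.75, 41 and 16.8 CPM in untreated cells, and here the groups overlapped. NR4A1, a nuclear receptor of the early response, had 7.51 ± 0.589 CPM with baicalein and 7.8 ± 0.62 CPM untreated (95% interval of the log2 fold change -0.35 to 0.24). FOSL2, JUNB, IER2, KLF6 and BTG2 were not called either, with log2 fold changes of -0.10, 0.26, 0.10, -0.08 and 0.22.

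Among feedback inhibitors of MAP kinase signalling, TRIB1 and DUSP1 rose. TRIB1, a pseudokinase that guides proteins to degradation, had 27, 25 and 25.4 CPM with baicalein, against 14.7, 16.7 and 16.7 CPM in untreated cells, a 1.61-fold rise (log2 fold change 0.68 ± 0.10, adjusted p = 0.0109). DUSP1, a phosphatase that switches off MAP kinases, had 124, 125 and 132 CPM with baicalein, against 81.9, 66 and 74.4 CPM in untreated cells, and rose 1.71-fold (log2 fold change 0.78 ± 0.15, adjusted p = 0.0484). In both genes all baicalein libraries lay above all untreated ones. The calls ended for TRIB1 without untreated replicates 1, 2 or 3 (adjusted p up to 0.07) and DUSP1 without each of the 6 libraries in turn (adjusted p up to 0.201). Of 15 listed genes 14 were tested, 2 were called higher and 0 lower, with a median log2 fold change of 0.14. The other DUSP, SPRY, SPRED and ETV members were not called; SPRY4, an inhibitor of receptor tyrosine kinase signalling, had 34.4 ± 3.12 CPM with baicalein and 44.9 ± 4.54 CPM untreated (log2 fold change -0.38, adjusted p = 0.286).

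The promoters of 4 of these genes are printed because they carry the letters TGACG, the core of the cyclic AMP response element that CREB and ATF factors bind. They are RefSeq sequences of the 250 bases before the start of transcription on GRCh38.p14, for FOS (chr14:75278578-75278827, plus strand), FOSB (chr19:45467746-45467995, plus strand), EGR1 (chr5:138465229-138465478, plus strand) and DUSP1 (chr5:172771196-172771445, minus strand), written 5′ to 3′ on the strand of the gene. Capitals mark TGACG or its reverse complement CGTCA and, in EGR1 alone, also the CArG boxes bound by serum response factor.
FOS: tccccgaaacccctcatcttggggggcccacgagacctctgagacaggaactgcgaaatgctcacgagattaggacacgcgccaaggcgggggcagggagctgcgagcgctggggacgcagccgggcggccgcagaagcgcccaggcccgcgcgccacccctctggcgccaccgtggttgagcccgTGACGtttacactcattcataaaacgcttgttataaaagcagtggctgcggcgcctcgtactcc
FOSB: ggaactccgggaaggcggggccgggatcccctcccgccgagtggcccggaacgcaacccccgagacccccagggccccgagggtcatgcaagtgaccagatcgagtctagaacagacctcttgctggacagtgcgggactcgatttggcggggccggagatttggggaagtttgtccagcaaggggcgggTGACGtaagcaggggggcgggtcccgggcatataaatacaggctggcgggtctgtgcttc
EGR1: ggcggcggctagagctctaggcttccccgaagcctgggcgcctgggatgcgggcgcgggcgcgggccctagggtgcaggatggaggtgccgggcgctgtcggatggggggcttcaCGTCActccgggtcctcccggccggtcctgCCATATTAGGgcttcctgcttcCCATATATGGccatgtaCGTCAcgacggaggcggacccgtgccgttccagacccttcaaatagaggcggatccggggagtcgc
DUSP1: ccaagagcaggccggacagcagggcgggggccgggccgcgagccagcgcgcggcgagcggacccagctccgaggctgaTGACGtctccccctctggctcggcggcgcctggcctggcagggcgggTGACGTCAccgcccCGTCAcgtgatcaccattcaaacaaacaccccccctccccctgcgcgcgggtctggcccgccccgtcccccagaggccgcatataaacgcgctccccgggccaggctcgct
The motif began 64 bases before the start in FOS and 60 before it in FOSB, and in both a TATAAA on the same strand lay nearer, at 33 and 30 bases. EGR1 had it at 135 and 66 bases and CArG boxes at 105 and 83 bases. DUSP1 had it at 172, 125, 122 and 111 bases, where the matches at 125 and 122 overlap in the full palindrome TGACGTCA. DUSP1 too had a TATAAA on its strand, at 30 bases. Promoter windows that also include the first 50 transcribed bases were found for 11 of the 15 genes called higher, 1 each, and for 33 of the 51 named genes called lower, which have 45 windows because some have several starts. TGACG on either strand was in 4 of the 11 windows, 14 of the 45 and 24.6% of 35116 RefSeq windows of that length. TGACGTCA was in 1 of the 11, 3 of the 45 and 1.85% of all windows, and the windows of NKILA and PMEPA1, which overlap, hold the same site, so that the 3 windows hold 2 sites. The CArG box, on either strand, was in 1 of the 11, 0 of the 45 and 1.29%. AGAACA on either strand, a core of steroid response elements, was in 3 of the 11, 5 of the 45 and 14.8%. TATAAA on the strand of the gene was in 3 of the 11, 3 of the 45 and 7.33%. A match in these letters is a description of the window and says nothing of binding.

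**Figure D2:**
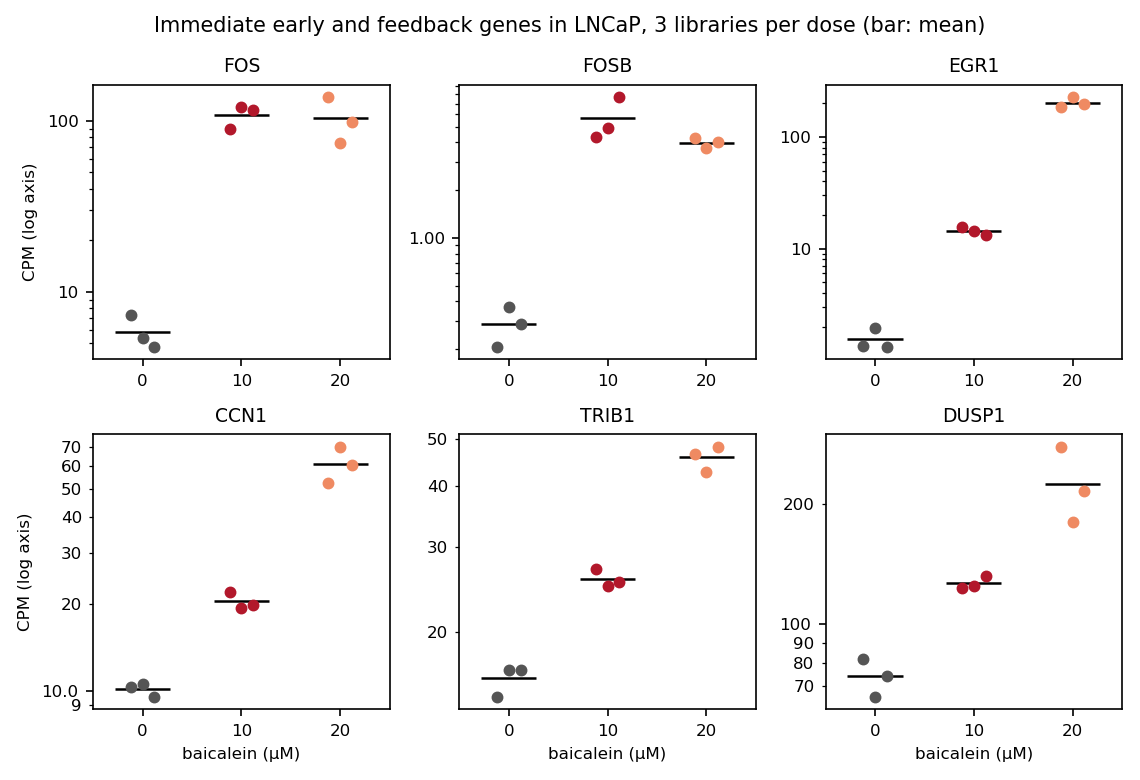
CPM (vertical axis, log scale) of 6 genes called higher with baicalein 10 µM, in LNCaP with 0, 10 and 20 µM baicalein (horizontal axis), with 1 point per library and a bar at the mean of 3. FOS and FOSB were not called between 10 and 20 µM, while EGR1, CCN1, TRIB1 and DUSP1 were higher at 20 µM than at 10 µM.

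Of 30 androgen-induced genes listed, 28 were tested, 0 were called higher and 8 lower, and their median log2 fold change was -0.51, against 0.02 over all genes. Without adjustment 2 passed 0.05 as higher and 15 as lower, against 5.36% and 5.86% of all genes tested. DESeq2 called 1 higher and 12 lower, against 89 and 311 among all 16129 genes with an adjusted p from it. The list overlaps the LNCaP markers, 4 of which, among them KLK2, TMPRSS2 and SLC45A3, were called lower. TMPRSS2 (ENSG00000184012, chromosome 21, 41464300 to 41531116, minus strand), a membrane serine protease, had 219, 191 and 179 CPM with baicalein, against 304, 332 and 335 CPM in untreated cells (log2 fold change -0.72 ± 0.12, adjusted p = 0.0162). KLK2, a secreted kallikrein, had 44.7, 35 and 35.3 CPM with baicalein, against 64.9, 68.6 and 70.9 CPM in untreated cells (log2 fold change -0.83 ± 0.12, adjusted p = 0.0105). In both the first baicalein library was the highest of the 3 and still below every untreated one. SLC45A3, a prostate membrane transporter, fell 1.84-fold, PMEPA1, an inhibitor of TGF-beta signalling, 1.85-fold, KLK4, another kallikrein, 1.56-fold, FKBP5, a co-chaperone of steroid receptors, 1.49-fold, and the scaffold protein HOMER2 1.38-fold, with adjusted p of 0.0125, 0.00627, 0.0341, 0.0298 and 0.0311. The calls of these named genes ended for PMEPA1 without baicalein replicate 2 (adjusted p up to 0.0522), KLK2 and SLC45A3 without baicalein replicates 2 or 3 (adjusted p up to 0.0913), TMPRSS2 without baicalein replicates 2 or 3 or untreated replicates 2 or 3 (adjusted p up to 0.104), KLK4 and HOMER2 without baicalein replicates 2 or 3 or untreated replicates 1, 2 or 3 (adjusted p up to 0.153) and FKBP5 without each of the 6 libraries in turn (adjusted p up to 0.116). With baicalein replicate 2 left out 1 of the 28 was called lower, and with baicalein replicate 1 left out 7 were. The fit of only both groups called 0 and that with the replicate block 3.

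Other members did not pass edgeR's test. KLK3, which encodes prostate-specific antigen, had 1136, 958 and 939.7 CPM with baicalein, against 1376, 1486 and 1628 CPM in untreated cells, so that the groups did not overlap, but it was not called (log2 fold change -0.57 ± 0.20, adjusted p = 0.313). AZGP1, a secreted zinc-binding glycoprotein, and CENPN, a centromere protein, were called by DESeq2 (adjusted p = 0.00138 and 0.00017) and not by edgeR (log2 fold changes -0.58 and -0.55, adjusted p = 0.107 for both). ACP3, prostatic acid phosphatase, had 193 ± 13.2 CPM with baicalein and 149.5 ± 9.7 CPM untreated (log2 fold change 0.37, adjusted p = 0.17; 0.0201 by DESeq2). Several members varied widely between replicates of 1 group. HERC3, a ubiquitin ligase, had 427, 57.7 and 297 CPM with baicalein and 405, 286 and 63.3 CPM untreated, and the tumour protein TPD52 had 353, 1171 and 1389 CPM with baicalein and 1050.3, 638 and 252 CPM untreated. Of 16 androgen signalling cofactors and related genes edgeR called 0. Of the 16, 3 passed an unadjusted p under 0.05, all lower, against 5.86% of all genes tested, and DESeq2 called 1 lower. The coactivator CREBBP, a histone acetyltransferase, had 45 ± 0.544 CPM with baicalein and 61.7 ± 1.08 CPM untreated (adjusted p = 0.0863; 6.41e-05 by DESeq2).

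**Figure D3:**
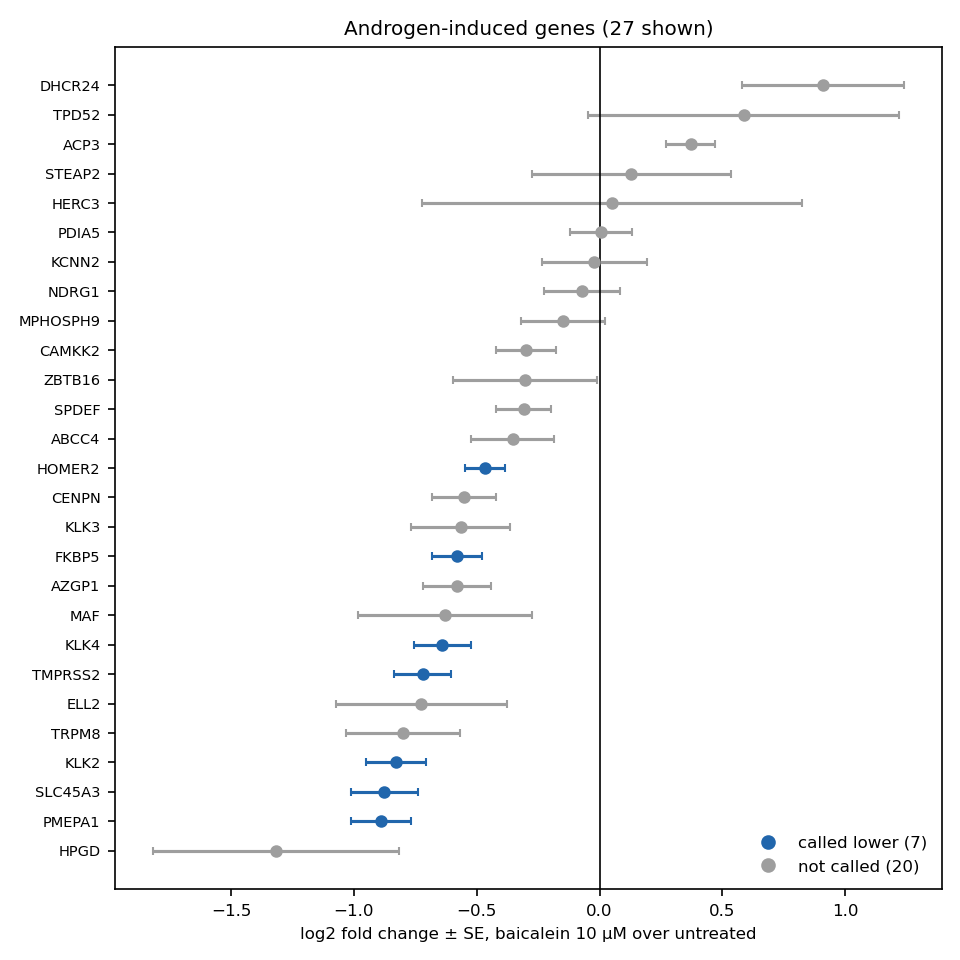
Log2 fold change ± standard error of baicalein 10 µM over untreated LNCaP (horizontal axis) for 27 androgen-induced genes (1 row per gene, sorted). Blue points are 7 genes called lower and grey points the 20 not called.

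Among genes that androgen holds down, UGT2B15 and UGT2B17 rose. Of 13 listed genes 10 were tested, 2 were called higher and 0 lower, and their median log2 fold change was 0.33. DESeq2 called 4 higher and 0 lower, against 89 and 311 of all 16129 genes with an adjusted p from it. UGT2B15, which conjugates androgens with glucuronic acid, had 86.8, 107 and 98.6 CPM with baicalein, against 59.7, 56.7 and 60.0 CPM in untreated cells, a 1.66-fold rise (log2 fold change 0.73 ± 0.10, adjusted p = 0.00522). UGT2B17, its close relative, had 193, 206 and 198 CPM with baicalein, against 138, 143 and 129.5 CPM in untreated cells, a 1.45-fold rise (log2 fold change 0.54 ± 0.09, adjusted p = 0.0155). In both genes each baicalein library was above each untreated one. How shared reads divide between UGT2B copies is uncertain. The calls ended for UGT2B15 without untreated replicate 2 (adjusted p up to 0.0633) and UGT2B17 without baicalein replicates 2 or 3 or untreated replicates 1, 2 or 3 (adjusted p up to 0.145), and also after correction for GC and length (adjusted p = 0.0791 and 0.271). CAMK2N1, an inhibitor of calmodulin-dependent kinase, and DDC, which decarboxylates aromatic amino acids, were called by DESeq2 (adjusted p = 0.000946 and 0.00384) and not by edgeR (log2 fold changes 0.38 and 0.33, adjusted p = 0.112 and 0.172).

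Outside the androgen list, the growth factor genes IGF1R and IRS2 and the cofactor GREB1 fell. GREB1 (ENSG00000196208, chromosome 2, 11482341 to 11642788, plus strand), a hormone-induced chromatin cofactor best known from oestrogen-treated breast cells, had 20.0, 17.4 and 23.9 CPM with baicalein, against 54.4, 51.8 and 53.8 CPM in untreated cells. Every untreated library was more than 2-fold above every baicalein one, and GREB1 fell 2.61-fold (log2 fold change -1.38 ± 0.13, adjusted p = 0.000396, at most 0.00335 with 1 library left out). IGF1R, the receptor of insulin-like growth factors, had 59.6, 55.2 and 46.7 CPM with baicalein, against 78.1, 81.1 and 99.6 CPM in untreated cells (log2 fold change -0.68 ± 0.13, adjusted p = 0.0489). IRS2, an adaptor that carries its signal, had 13.1, 14.2 and 14.1 CPM with baicalein, against 23.3, 22.3 and 23.3 CPM in untreated cells (log2 fold change -0.73 ± 0.12, adjusted p = 0.0155). Both falls were below 2-fold, and the calls ended for IRS2 without baicalein replicates 1, 2 or 3 or untreated replicate 1 (adjusted p up to 0.075) and IGF1R without each of the 6 libraries in turn (adjusted p up to 0.177). Oestrogen and hormone targets numbered 8 tested of 13 listed, with 0 called higher, 2 called lower (GREB1 and IGF1R) and a median log2 fold change of 0.06. The oestrogen receptor genes ESR1 and ESR2 were among those not tested, with at most 1 and 4 counts in any of the 6 libraries. CCND1, a cyclin of early G1, had 213 ± 7.27 CPM with baicalein and 221 ± 7.05 CPM untreated (95% interval of the log2 fold change -0.32 to 0.21).

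The remaining falls that held whichever library was left out concerned genes of unlike function. TRIM49D1 (ENSG00000223417, chromosome 11, 89911111 to 89922245, minus strand), of a primate-specific family of TRIM proteins, had 13.7, 14.3 and 12.6 CPM with baicalein, against 25.4, 29.6 and 27 CPM in untreated cells (log2 fold change -1.01 ± 0.10, adjusted p = 0.00037). Its near-identical neighbour TRIM49D2 had 19.2, 19.9 and 20.0 CPM with baicalein, against 42, 46 and 44.6 CPM in untreated cells (log2 fold change -1.16 ± 0.14, adjusted p = 0.00309), and how reads divide between these copies is uncertain. OTULINL (ENSG00000145569, chromosome 5, 14581792 to 14616180, plus strand), an inactive relative of the deubiquitinase OTULIN, had 17.1, 21.3 and 18.4 CPM with baicalein, against 43.6, 42.1 and 41.5 CPM in untreated cells (log2 fold change -1.16 ± 0.12, adjusted p = 0.000668). In all 3 genes each baicalein library lay below each untreated one. ADAM7, a membrane protein of the ADAM family, had 7.88, 8.84 and 12.8 CPM with baicalein, against 25.3, 23.2 and 21.7 CPM in untreated cells (adjusted p = 0.00514). GRIN3A, a subunit of NMDA glutamate receptors, had 38.1, 33.1 and 30.3 CPM with baicalein, against 56.5, 62.7 and 55.8 CPM in untreated cells (adjusted p = 0.00472). PLEC, a linker of the cytoskeleton, had 97.8, 85.9 and 95.9 CPM with baicalein, against 157, 170.2 and 171 CPM in untreated cells (adjusted p = 0.00472). Each of the 3 fell by between 1.73 and 2.38-fold, with no overlap, and the third baicalein library of ADAM7 was its highest. RAB3B, a small GTPase of vesicle release, had 83.8, 78.8 and 78.5 CPM with baicalein, against 119, 138 and 127 CPM in untreated cells (adjusted p = 0.00514). FN1, the matrix protein fibronectin, had 600.3, 628 and 644 CPM with baicalein, against 1012, 957 and 945 CPM in untreated cells (adjusted p = 0.00472). They fell 1.59-fold and 1.56-fold, again with no overlap. The largest adjusted p with 1 library left out was 0.0029 for TRIM49D1, 0.0256 for TRIM49D2, 0.00815 for OTULINL, 0.0427 for ADAM7, 0.0416 for GRIN3A, 0.0418 for PLEC, 0.0426 for RAB3B and 0.0412 for FN1.

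UHRF1, which binds hemimethylated DNA and recruits the maintenance methyltransferase, had 6.82, 4.85 and 5.6 CPM with baicalein, against 19, 16.3 and 16.5 CPM in untreated cells. That was a 3.00-fold fall (log2 fold change -1.58 ± 0.23, adjusted p = 0.01) with no overlap, and the call ended for UHRF1 without baicalein replicates 2 or 3 (adjusted p up to 0.0702). Of 43 DNA replication and G1/S genes edgeR called 0 higher and 1 lower, UHRF1 itself, and DESeq2 called 0 higher and 4 lower. Their median log2 fold change was -0.19, and without adjustment 11 passed 0.05, all lower, against 5.86% of all genes tested. Over all genes DESeq2 called 311 lower of the 16129 with an adjusted p from it. MCM2 and MCM5, subunits of the replicative helicase, had log2 fold changes of -0.64 and -0.33 (adjusted p = 0.168 and 0.181 by edgeR, 0.00958 and 0.008 by DESeq2), and the transcription factor E2F2 had -0.97 (adjusted p = 0.172 by edgeR, 0.0256 by DESeq2). DNMT1, the methyltransferase that UHRF1 recruits, had 69.5 ± 4.48 CPM with baicalein and 85.2 ± 3.42 CPM untreated (adjusted p = 0.356). Mitosis genes stood at 0 called of 37 tested, with 0 at an unadjusted p under 0.05, 0 called by DESeq2 and a median log2 fold change of -0.02. Their members MKI67 and CCNB1 had log2 fold changes of -0.24 and 0.16.

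WWTR1, also called TAZ and a coactivator of TEAD factors, had 3.98, 2.77 and 4.5 CPM with baicalein, against 9.14, 8.31 and 8.9 CPM in untreated cells (log2 fold change -1.23 ± 0.19, adjusted p = 0.0125), and the call ended for WWTR1 without baicalein replicate 2 or untreated replicate 1 (adjusted p up to 0.0663). Of 13 tested genes of the YAP and TAZ list 0 were called higher and 1, WWTR1 itself, lower, and their median log2 fold change was -0.20. CCN1, which was called higher, was counted with the immediate early genes and is not on this list, whose highest log2 fold change was 0.37. CHRNA2, a nicotinic receptor subunit, had 3.72, 2.17 and 1.56 CPM with baicalein, against 12.3, 11.4 and 10.5 CPM in untreated cells, a 4.57-fold fall (adjusted p = 0.00695). The third library with baicalein was the lowest, and all 3 lay well under the untreated range. NNMT, which methylates nicotinamide, fell 2.09-fold, TWIST1, a factor of mesenchymal identity, 1.69-fold, and KMT2D, a histone H3 lysine methyltransferase, 1.6-fold (adjusted p = 0.0391, 0.0341 and 0.0301). Falls of ZMIZ1, a transcriptional coregulator, LIMD1, an adaptor of the Hippo pathway, and SLC7A1, an arginine and lysine transporter on the list of ATF4 targets, were 1.47, 1.42 and 1.37-fold (adjusted p = 0.0217, 0.0298 and 0.0455). These calls ended for CHRNA2 without baicalein replicate 2 (adjusted p up to 0.0609), ZMIZ1 without baicalein replicates 2 or 3 or untreated replicates 1 or 3 (adjusted p up to 0.108), KMT2D, LIMD1 and SLC7A1 without baicalein replicates 2 or 3 or untreated replicates 1, 2 or 3 (adjusted p up to 0.212) and NNMT and TWIST1 without each of the 6 libraries in turn (adjusted p up to 0.142).

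Further genes called lower had adjusted p between 0.00934 and 0.0489. They were the zinc finger factors RREB1, ZNF713 and ZNF587B, the spectrin SPTBN5, the nuclear factor AFF3, the kinase MAK, the guanine nucleotide exchange factor SPATA13, the phosphatase PTPRM, the polycystin PKD1, the dynein adaptor BICD2, the poly(A)-binding relative PABPC1L, PNMA1, NPIPB5 of a large family of copies, MAMDC4, BRME1 and TMEM121B. Their folds ran from 1.36 for PTPRM to 2.98 for TMEM121B. Their calls ended for RREB1, SPTBN5, PNMA1 and NPIPB5 without baicalein replicate 2 (adjusted p up to 0.0702), AFF3 without baicalein replicates 1 or 3 or untreated replicate 2 (adjusted p up to 0.061), SPATA13 without baicalein replicates 2 or 3 or untreated replicate 2 (adjusted p up to 0.0679), TMEM121B without baicalein replicates 1 or 3 or untreated replicates 1, 2 or 3 (adjusted p up to 0.121), MAK without baicalein replicates 1, 2 or 3 or untreated replicates 1 or 2 (adjusted p up to 0.123), ZNF587B, PKD1, PABPC1L and MAMDC4 without baicalein replicates 2 or 3 or untreated replicates 1, 2 or 3 (adjusted p up to 0.212) and ZNF713, PTPRM, BICD2 and BRME1 without each of the 6 libraries in turn (adjusted p up to 0.171). The noncoding NKILA overlaps PMEPA1 on the other strand and AP1G2-AS1 lies antisense to its partner, and without strand their reads cannot be told from those of the coding genes. NKILA had 15.3 ± 2.22 CPM with baicalein and 29 ± 2.17 CPM untreated, and AP1G2-AS1 had 12.8 ± 1.73 CPM with baicalein and 22 ± 2.17 CPM untreated (adjusted p = 0.0187 and 0.0425). These calls ended for NKILA without baicalein replicates 2 or 3 or untreated replicates 2 or 3 (adjusted p up to 0.119) and AP1G2-AS1 without baicalein replicates 2 or 3 or untreated replicates 1, 2 or 3 (adjusted p up to 0.171). A further 2 of the genes called lower have no symbol.

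Outside the early and androgen groups, PPP1R8 rose and kept its call whichever library was left out. PPP1R8 (ENSG00000117751, chromosome 1, 27830782 to 27851676, plus strand), a nuclear inhibitor of protein phosphatase 1 that also binds splicing factors, had 56.2, 84.8 and 87.1 CPM with baicalein, against 32.4, 35.1 and 35.5 CPM in untreated cells. The first baicalein library stood about midway between the untreated ones and the other two, and the groups did not overlap. Its rise was 2.22-fold (log2 fold change 1.15 ± 0.14, adjusted p = 0.00309, at most 0.0311 with 1 library left out). It was the only call among 23 splicing kinases, SR proteins and their partners, whose median log2 fold change was 0.06. PPP1R14C, another inhibitor of that phosphatase, rose 1.47-fold, SEC61G, a subunit of the protein channel of the endoplasmic reticulum, 1.49-fold, CTSL, the lysosomal protease cathepsin L, 1.43-fold, and SERPINI1, the protease inhibitor neuroserpin, 1.56-fold (adjusted p = 0.0341, 0.0311, 0.0484 and 0.0341). These last calls ended for SEC61G without baicalein replicates 2 or 3 or untreated replicates 1, 2 or 3 (adjusted p up to 0.225) and PPP1R14C, CTSL and SERPINI1 without each of the 6 libraries in turn (adjusted p up to 0.222).

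Mitochondrially encoded RNA took 5.54 ± 0.572% of the counts with baicalein, against 5.09 ± 0.381% in untreated cells (SD, n = 3 each). The difference of 0.455 percentage points did not pass an exact two-sided permutation test over the 6 libraries (p = 0.4), where the smallest p possible is 0.1. MT-RNR2, the large ribosomal RNA, rose 1.27-fold (adjusted p = 0.0379), with 13253, 13473 and 13394 CPM with baicalein, against 10219, 10634 and 10677 CPM in untreated cells. The groups did not overlap, by a margin that was small beside the level. MT-ND6, the mRNA on the light strand, fell, with 66.8, 46.6 and 59.1 CPM with baicalein, against 101, 100.4 and 112 CPM in untreated cells (log2 fold change -0.86 ± 0.15, adjusted p = 0.0298). Reads of MT-ND6 cannot be told from heavy-strand transcripts of the same place without strand. Of the 13 mRNAs, 0 were called higher and 1 lower. Estimates lay above 0 for 12 of the 13, and for 9126 of all 16985 genes tested. The MT-RNR2 and MT-ND6 calls ended for MT-ND6 without baicalein replicates 2 or 3 or untreated replicates 1, 2 or 3 (adjusted p up to 0.129) and MT-RNR2 without each of the 6 libraries in turn (adjusted p up to 0.262).

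Some calls rested on few reads. CCDC141, a coiled-coil protein, had 1 count over the baicalein libraries and 62 over the untreated libraries. The ratio of baicalein to untreated, scaled for library size, was 0.0241, with a 95% interval of 0.000602 to 0.140 that covers counting error only. TMEM11-DT, a noncoding transcript divergent to TMEM11, had 8 counts with baicalein and 55 untreated, a ratio of 0.218 (0.0895 to 0.460). The mitochondrial transfer RNA gene MT-TP had 13 counts with baicalein and 64 untreated, a ratio of 0.304 (0.154 to 0.557), and PLD1, phospholipase D, had 32 counts with baicalein and 14 untreated, a ratio of 3.42 (1.77 to 6.94). CCDC141, TMEM11-DT and MT-TP fell and PLD1 rose. MT-TP lies on the same strand as MT-ND6, and without strand its reads cannot be told from heavy-strand transcripts of the same place. Adjusted p were 0.0162 for CCDC141, 0.01 for TMEM11-DT, 0.0286 for MT-TP and 0.0414 for PLD1. The calls ended for TMEM11-DT without baicalein replicate 2 (adjusted p up to 0.0865), CCDC141 without baicalein replicates 1, 2 or 3 or untreated replicates 1 or 2 (adjusted p up to 0.0842) and MT-TP and PLD1 without each of the 6 libraries in turn (adjusted p up to 0.189).

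FOLH1, the gene of the radioligand's target PSMA, had 976, 1049 and 1037 CPM with baicalein, against 859, 908 and 870.4 CPM in untreated cells. All 3 baicalein libraries lay above all untreated ones, by a small margin, and the gene was not called (log2 fold change 0.21 ± 0.08, 95% interval 0.04 to 0.39 before adjustment, adjusted p = 0.334). Its copy FOLH1B, whose reads it may share, had 164 ± 9.31 CPM with baicalein and 137 ± 8.69 CPM untreated (adjusted p = 0.358). CDKN1A, the cell cycle inhibitor p21, had 236, 205 and 184 CPM with baicalein, against 156, 165 and 171 CPM in untreated cells (adjusted p = 0.641). In CDKN1A too the baicalein libraries lay above the untreated ones, without a call. MYC had 16.7, 11.4 and 11.7 CPM with baicalein, against 10.7, 18.8 and 70.5 CPM in untreated cells, where the third library stood far above the rest (adjusted p = 0.549). HMOX1, the haem oxygenase induced by oxidative stress, had 22.1 ± 3.02 CPM with baicalein and 21.6 ± 2.48 CPM untreated (95% interval -0.31 to 0.38), and DDIT3, the stress factor CHOP, 75.1 ± 9.06 CPM and 71.3 ± 3.78 CPM (95% interval -0.23 to 0.38). The estimates of HMOX1 and DDIT3 were so near 0 that other settings turned their sign. HMGCS1, an enzyme of cholesterol synthesis, varied within both groups, with 308, 455 and 142 CPM with baicalein and 155, 486 and 494 CPM untreated (adjusted p = 0.921). CYP1A1, the target gene of the aryl hydrocarbon receptor, had 2.66 ± 0.503 CPM with baicalein and 4.04 ± 1.06 CPM untreated (adjusted p = 0.442).

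Stress and metabolic lists held few or no calls. Of 20 NRF2 antioxidant targets tested, edgeR called 0, while at an unadjusted p under 0.05, 6 were higher and 0 lower, DESeq2 called 1 higher, and the median log2 fold change was 0.25. TXNRD1, thioredoxin reductase, had 955, 970.5 and 906 CPM with baicalein, against 417, 508 and 360.1 CPM in untreated cells, and NQO1, a quinone reductase, 191, 214 and 196 CPM with baicalein, against 157, 155 and 164 CPM. In both the groups did not overlap, and adjusted p were 0.29 and 0.184 by edgeR and 0.127 and 0.0201 by DESeq2. All 25 nuclear-encoded subunits of the respiratory chain had estimates above 0, as did 9126 of all 16985 genes tested. The median log2 fold change of the 25 was 0.17, but none of them was called by edgeR or DESeq2. Of the 25, 3 passed an unadjusted p under 0.05. Heat shock genes (16 tested, median 0.21) had 0 calls by edgeR, 1 by DESeq2 and 3 at an unadjusted p under 0.05, all higher. Hypoxia targets (23 tested, median 0.19) likewise had 0, 1 and 3. The p53 targets (27 tested, median 0.12) had 0 calls by edgeR, 1 lower by DESeq2, and 1 higher and 2 lower without adjustment. Among BCL2 family genes (15 tested) and cell cycle kinases and their regulators (17 tested) edgeR and DESeq2 called 0, and 0 passed an unadjusted p under 0.05. Cholesterol genes (24 tested, median -0.05) had 0 calls by edgeR, 1 lower by DESeq2, and 1 in each direction at an unadjusted p under 0.05. The lipoxygenase and eicosanoid genes, which include targets by which baicalein is best known, had 5 of 14 members tested and 0 calls by either tool, with 1 in each direction at an unadjusted p under 0.05. ALOX15, a lipoxygenase, had 147 ± 16.1 CPM with baicalein and 154 ± 7.44 CPM untreated (95% interval of the log2 fold change -0.31 to 0.19).

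The same genes were then read at 20 µM, in a comparison that shares the 10 µM libraries with the one above. It called 9235 of 16985 genes between 20 and 10 µM (54.4%), 4556 higher (26.8%) and 4679 lower (27.5%), and mitochondrially encoded RNA took 10.5 to 14.5% of counts at 20 µM. FOS had 89.3, 120.1 and 116 CPM at 10 µM and 138, 74.5 and 97.7 CPM at 20 µM, ranges that overlapped, and the step was not called (log2 fold change -0.07, adjusted p = 0.803). FOSB likewise had 5.66 ± 1.8 CPM at 10 µM and 3.98 ± 0.279 CPM at 20 µM (adjusted p = 0.118), and PPP1R8 76.1 ± 17.2 CPM and 82.4 ± 4.98 CPM (adjusted p = 0.494). EGR1 went on to 184, 228 and 196 CPM at 20 µM, a log2 step of 3.81 ± 0.15 (adjusted p = 1.07e-09). All 20 µM libraries of EGR1 lay far above those at 10 µM. TMPRSS2 stood at 323 ± 17.2 CPM, 196 ± 20.5 CPM and 44.9 ± 5.08 CPM at 0, 10 and 20 µM (20 against 10 µM, adjusted p = 2.66e-08), and GREB1 stood at 53.3 ± 1.33 CPM, 20.4 ± 3.25 CPM and 6.2 ± 0.82 CPM at 0, 10 and 20 µM (adjusted p = 6.31e-07).

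Some genes called at 10 µM lay on the other side of untreated cells at 20 µM. UGT2B15 stood at 58.8 ± 1.8 CPM, 97.5 ± 10.3 CPM and 12.8 ± 0.462 CPM at 0, 10 and 20 µM, so that it ended well under its untreated level (20 against 10 µM, log2 fold change -2.92 ± 0.11, adjusted p = 6.63e-10). UGT2B17 followed the same course, with 137 ± 6.76 CPM, 199 ± 6.52 CPM and 27.8 ± 1.83 CPM (adjusted p = 3.07e-10). SERPINI1 had 10.9 ± 0.724 CPM, 17 ± 0.942 CPM and 8.02 ± 0.974 CPM (adjusted p = 7.35e-06). All 3 were higher than untreated at 10 µM and lower at 20 µM, where adjusted p against untreated were 4.93e-09, 1.24e-09 and 0.00634. IRS2 did the reverse, with 23 ± 0.565 CPM, 13.8 ± 0.617 CPM and 57.6 ± 8.28 CPM (adjusted p = 3.16e-08 for the step and 8.02e-07 for 20 µM against untreated). AFF3, SPTBN5, MAK and PKD1 were lower at 10 µM and higher at 20 than at 10 µM, by log2 steps of 1.26, 1.29, 1.64 and 0.67. At 20 µM these 4 did not pass the test against untreated (adjusted p = 0.147, 0.26, 0.0563 and 0.531). TMEM11-DT, MT-TP, ZNF713 and BICD2 did the same, by log2 steps of 2.23, 1.31, 1.12 and 0.54. Their adjusted p at 20 µM against untreated were 0.678, 0.384, 0.681 and 0.736. RREB1 and NPIPB5 also stepped up, by 0.39 and 0.23, and stayed below untreated (adjusted p = 0.0237 and 0.00497). All were chosen as low in the 10 µM libraries, which the step uses again. CDKN1A, which was not called at 10 µM, stood at 1148 ± 208 CPM at 20 µM, against 208 ± 25.9 CPM at 10 µM.

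**Figure D4:**
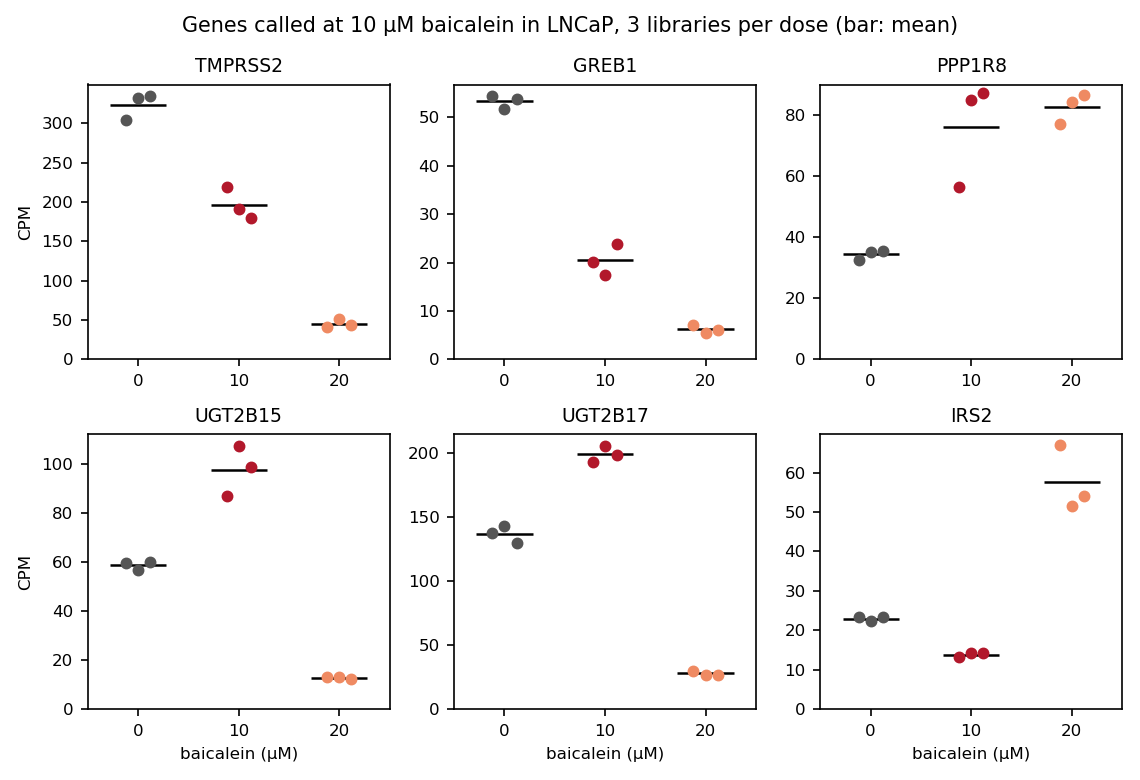
CPM (vertical axis, from 0) of 6 genes called with baicalein 10 µM against untreated, in LNCaP with 0, 10 and 20 µM baicalein (horizontal axis), with 1 point per library and a bar at the mean of 3. TMPRSS2 and GREB1 fall with dose, PPP1R8 was not called between 10 and 20 µM, and UGT2B15, UGT2B17 and IRS2 turn between 10 and 20 µM.

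Genistein, an isoflavone, carries its phenyl ring at another carbon of the core than the flavone baicalein. With both at 10 µM and 24 h, the only matched pair compared here, 1 of 16985 genes was called (0.00589%), with 1312 at an unadjusted p under 0.05. NDST1, which modifies heparan sulfate chains, had 45.2, 25.9 and 32.1 CPM with baicalein, against 103, 105 and 106 CPM with genistein (log2 fold change -1.61 ± 0.19, 95% interval -2.03 to -1.18, adjusted p = 0.0268). The groups did not overlap, and untreated cells had 42.3, 52.4 and 42.5 CPM. Against untreated, NDST1 was not called with baicalein (log2 fold change -0.41, adjusted p = 0.445) and was higher with genistein (adjusted p = 0.0291). Of the 68 genes called with baicalein against untreated, edgeR called 0 between the compounds and DESeq2 called 16. At an unadjusted p under 0.05, 33 of the 68 passed, against 1312 of all 16985. The log2 difference of baicalein over genistein was above 0 for 13 of the 68. Both contrasts use the same baicalein libraries, and the 68 were chosen by their values in them. FOS had 89.3, 120.1 and 116 CPM with baicalein and 124, 109.8 and 108 CPM with genistein (95% interval of the log2 difference -0.55 to 0.41), and EGR1 15.6, 14.4 and 13.2 CPM and 13.6, 11.9 and 13.3 CPM (-0.15 to 0.46). KLK2 had 38.4 ± 5.51 CPM with baicalein and 44.7 ± 3.82 CPM with genistein (-0.49 to 0.05). For PPP1R8 the compounds lay further apart without a call, with 56.2, 84.8 and 87.1 CPM with baicalein and 37.4, 39.5 and 38.5 CPM with genistein (log2 difference 0.98, 95% interval 0.68 to 1.29, adjusted p = 0.0707). PLEC had 93.2 ± 6.43 CPM with baicalein and 152 ± 1.98 CPM with genistein (95% interval -0.95 to -0.47, adjusted p = 0.11). Against untreated, log2 fold changes with genistein were 4.28 for FOS, 3.07 for EGR1, -1.06 for GREB1 and 0.38 for UGT2B15, from a contrast that shares the untreated libraries. A 2-fold difference in either direction was outside the interval for 11393 of 16967 genes with an interval (67.1%). For the others it was inside.

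The number of genes called changed with the libraries that entered the fit. With the baicalein 20 µM libraries left out of the fit, 180 genes were called, 57 higher and 123 lower, including all 68. With only the 6 libraries of both groups, 9 were called, among them EGR1, FOS, FOSB, GREB1, UHRF1 and TRIM49D2 of the 68. Removing the GC and length trend gave 160 calls. It kept 54 of the 68, and those that ended include UGT2B15, UGT2B17, DUSP1, SERPINI1, SEC61G, MT-RNR2, TWIST1, IRS2, IGF1R, BICD2, HOMER2, SLC7A1 and PTPRM. Thinning every LNCaP library to the lowest total, which takes the depth gap away, called 82 and kept 59 of the 68, without CCDC141, ZNF713, BRME1, ZNF587B, MT-RNR2, CTSL, SEC61G, SERPINI1 and PLD1. Testing genes without a filter on low counts kept 60, and the calls of MT-RNR2, CTSL, UGT2B17, PPP1R14C, SEC61G, SERPINI1, DUSP1 and PLD1 ended. DUSP1 and CTSL also ended with mitochondrially encoded genes left out. Left out 1 at a time, the libraries gave between 22 calls (without baicalein replicate 2) and 58 (without baicalein replicate 1), and 15 of the 68 were called in all 6 such fits, 36 in 1 to 5 and 17 in 0.

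**Figure D5:**
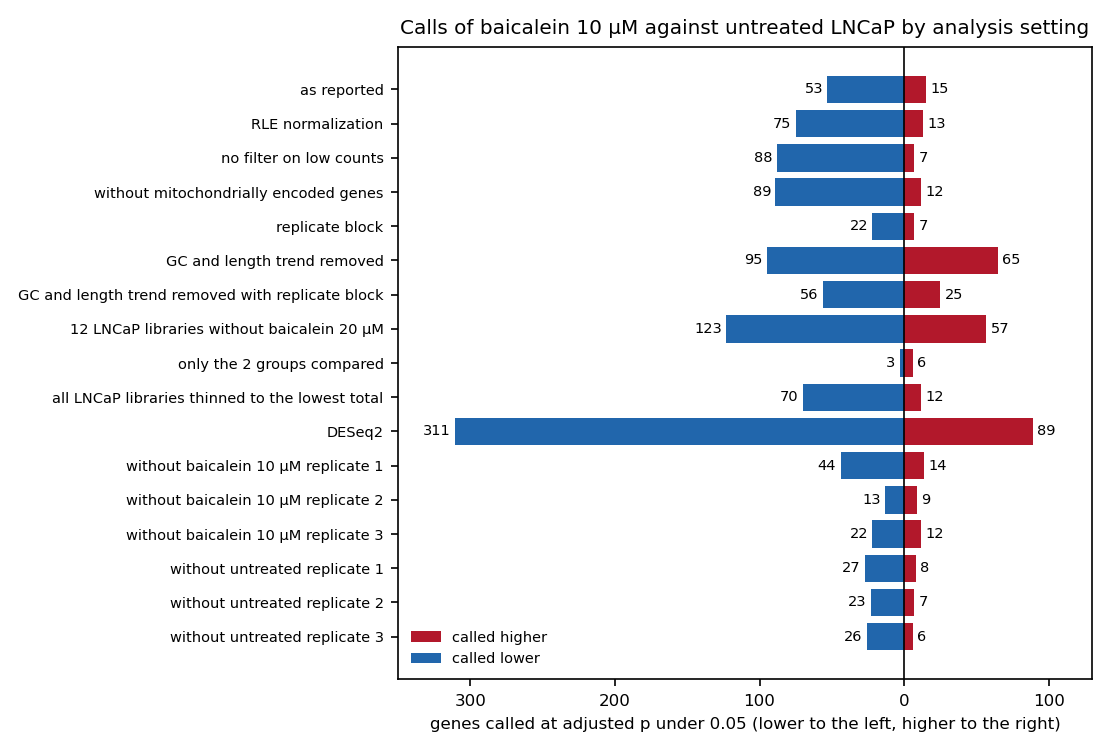
Number of genes called at an adjusted p under 0.05 for baicalein 10 µM against untreated LNCaP (horizontal axis, lower to the left and higher to the right of 0) under each analysis setting (1 row each). Calls ran from 9 with only both groups in the fit to 400 with DESeq2, and lower calls outnumbered higher ones in every setting except the fit of only both groups.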

How the data were processed

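Per the labels' protocols, poly(A) RNA from TRIzol extracts went into NEBNext Ultra libraries. That kit does not mark strand. The authors deposited whole-number counts per gene, 1 column per library, and the submitters' processing notes name GRCh38, STAR 2.7.6a, fastp, DESeq2 1.20.0 and featureCounts 1.6.4. How strand and multi-mapping reads were treated, and which annotation was used, is not given in the sources used here. The table lists 63241 genes, 20521 of them without a symbol and 24834 without a count. Not used were 13 comparisons by the authors, whose groups are coded, and 18 deposited FPKM columns, of which 6 name 20 µM baicalein and 0 name 10 µM. Count columns were matched to samples by cell line, compound, concentration and replicate number in their headers. Totals ran from 10013567 to 18445711 counts over the 18 libraries.

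All 15 LNCaP libraries entered 1 fit of edgeR 4.0.16 in R 4.3.3 (TMM, default filter on low counts, robust quasi-likelihood F test). It tested 16985 genes, had 10 residual degrees of freedom, and estimated the common biological coefficient of variation at 0.234. P-values were adjusted by Benjamini-Hochberg over all genes tested. Standard errors come from dividing the unshrunken log2 fold change by the root of F, and 95% intervals place them around the shrunken estimate. Replicates differed by more than sampling noise (chi-square per degree of freedom 17.0 to 52.3). Same-numbered replicates of baicalein 10 µM and untreated did not deviate together. Transcript length and GC came from GENCODE 29, matched to 58228 identifiers with 99.3% of the counts. Promoters came from RefSeq GRCh38.p14. Counting intervals cover counting error only, as the labels name no molecular identifiers.

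Named genes were every called gene with a symbol, 16 genes of interest, up to 4 members with the smallest adjusted p in each list described, and genes called between the compounds. Other members, given for contrast, were chosen after their values were seen. Some genes the rule names are counted and not reported here. There were 42 lists with 801 entries, 799 of them in the table. The members and lists were chosen with earlier results of these data known, and no list was tested as a set. Alternatives were DESeq2 1.42.0, other scalings and filters, GC and length correction, a replicate block, other libraries in the fit and each library left out. Thinning was added after the data were seen.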

Additional observations from a re-analysis of the deposited data

Results flagged for a closer look

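In edgeR's fit of all LNCaP libraries, NDST1 was the 1 gene called between baicalein and genistein at 10 µM by a test of the difference itself, with a log2 fold change of -1.61 for baicalein over genistein (adjusted p = 0.0268). It had 45.2, 25.9 and 32.1 CPM with baicalein and 103, 105 and 106 CPM with genistein. The call was absent with a replicate block, without the baicalein 20 µM libraries, with only both groups in the fit and when some single libraries were left out.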

How the results depend on the processing

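For baicalein 10 µM against untreated (68 calls), the count was 29 with the replicate number as a block, 160 with the GC and length trend removed, 180 without baicalein 20 µM, 9 with only both groups and 400 with DESeq2, and leaving out 1 library gave 22 to 58. Same-numbered libraries of these 2 groups did not deviate together (correlations of same-numbered deviations -0.29 to -0.06, of other numbers -0.19 to 0.24). Deviations from a mean of 3 libraries are tied to each other, so the check cannot show whether the numbers mark a shared batch. For baicalein against genistein at 10 µM (1 call), the block gave 0, GC and length removal 3, the fit without baicalein 20 µM 0, the 2-group fit 0 and DESeq2 72, and leaving out 1 library gave 0 to 3. Other settings left both counts, the 9235 calls between 20 and 10 µM and the mitochondrial share within 1.5 times or 1 SD.

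Log2 fold changes near 0 turned sign. After GC and length removal, without and with the block, CCND1 turned to 0.00919 and 0.00819, and DDIT3 to -0.00153 and -0.00183. With no filter HMOX1 turned to -0.0595 and DDIT3 to -0.0153, and HMOX1 turned to -0.0120 without mitochondrial genes, -0.0412 thinned and -0.0201 by DESeq2. With 1 library left out HMOX1 ranged from -0.0873 to 0.0947, DDIT3 from -0.0298 to 0.129, HMGCS1 from -0.752 to 0.0136, RB1 from -0.20 to 1.10, and TNF, with 1 count in 1 untreated library, from -2.02 to 0.00. The cause was not tested. Genes under the filter on low counts were not tested.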

Other observations

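Values of some genes that edgeR did not call are given by library, since replicates of 1 group lay apart in several of them. RB1, the retinoblastoma gene, had 51.9, 72.9 and 235 CPM with baicalein and 78.9, 64.4 and 72.3 CPM untreated, so that 1 baicalein library stood apart. GEN1, a nuclease that cuts Holliday junctions, had 5.31, 46.5 and 9.64 CPM with baicalein and 8.36, 6.36 and 7.58 CPM untreated, again with 1 high library, and not the same one. TFRC, the transferrin receptor, had 636, 886 and 1054 CPM with baicalein and 841, 302 and 229 CPM untreated. MAX, the partner of MYC, had 57.6, 33 and 52.8 CPM with baicalein and 20.1, 22.3 and 23.8 CPM untreated, where the groups did not overlap (adjusted p = 0.44 by edgeR). STEAP2, a metalloreductase of prostate cells, had 143, 364 and 365 CPM with baicalein and 321, 217 and 258 CPM untreated, and ETV1, an ETS factor, 164, 328 and 397 CPM and 297, 210.5 and 168 CPM.

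DNA repair genes had 0 calls by edgeR. Of 32 Fanconi and homologous recombination genes tested, edgeR called 0 and DESeq2 1 lower, and 2 passed an unadjusted p under 0.05 as higher and 4 as lower. FANCA, a subunit of the Fanconi core complex, had 10.4, 10.8 and 11.2 CPM with baicalein and 14.7, 17.5 and 18.6 CPM untreated, with no overlap (adjusted p = 0.0644 by edgeR, 0.00124 by DESeq2). Of 32 other repair genes edgeR and DESeq2 called 0, and 2 passed an unadjusted p under 0.05, both higher. ERCC5, a nuclease of excision repair, had 26.3, 32.1 and 30.2 CPM with baicalein and 23.9, 17.5 and 22.8 CPM untreated (adjusted p = 0.165). Interferon-stimulated genes (17 tested) had 0 calls by edgeR and by DESeq2, with 2 in each direction at an unadjusted p under 0.05, and NF-kB and inflammatory genes (15 tested) had 0 by both tools and 0 at an unadjusted p under 0.05.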
